A study of Mus musculus with 10 samples.

Results

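A group of 10 genes of the matricellular family were followed across 10 RNAseq libraries of a mouse glioma model: the thrombospondins *Thbs1*, *Thbs2*, *Thbs3*, *Thbs4* and *Comp*, the SPARC pair *Sparc* and *Sparcl1*, and *Spp1*, *Postn* and *Tgfbi*. Members were chosen by gene symbol among the 23230 features of the deposited matrix of FPKM, read density scaled to transcript length and library size, and all 10 were found. The list was drawn up with earlier results of the comparison of PT with AstroEGFR* known, in which *Thbs1* stood among the larger decreases, so the values of that comparison were selected on. They are given below as a description, with no p-value for a member, and where members are counted among the calls of the fit over all features nothing is read from the count. AstroEGFR* (3 libraries, 1 for each of 3 astrocyte batches) are C57BL/6 astrocytes from the cerebral cortex at postnatal day 5 that lack p16/p19 (*Ink4a/Arf*) and carry a retroviral vector for human EGFRvIII, a constitutively active form of the epidermal growth factor receptor. PT (4 libraries) are glioma propagating cells recovered from the primary tumours that such cells formed in female CD1 Nude hosts. These hosts lack a thymus but keep their own stroma, vessels and macrophages. Batch 1 gave rise to PT1 and PT4, batch 2 to PT2 and batch 3 to PT3. AstroEGFR* Zfp423 (3 libraries) are the 3 AstroEGFR* batches with an additional vector for *Zfp423*, a zinc finger transcription factor. All groups share the deletion and EGFRvIII. Serum was present in the medium of the astrocyte cultures, whereas PT grew on laminin with EGF and FGF2 and no serum, so the medium and the tumour step cannot be told apart. The labels do not say whether the batches came from separate litters, so p-values measure the spread between these libraries only. In the fit over all features that spread is moderated by the spread of other features.

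Matricellular proteins are secreted into the extracellular matrix, where they modulate how cells attach, migrate and receive growth factor signals rather than building the scaffold itself. Thrombospondin 1 activates latent TGF-beta and restrains angiogenesis through CD36 and CD47, and thrombospondins 1 and 2 released by astrocytes promote synapse formation. Thrombospondins 3, 4 and 5 (COMP) form pentamers and are best known from cartilage, tendon and muscle. SPARC binds collagen and modulates matrix assembly, SPARC-like 1 (hevin) is a product of astrocytes that promotes synapses, osteopontin (*Spp1*) is a ligand of integrins and CD44, and periostin (*Postn*) and TGFBI share fasciclin domains and are TGF-beta-induced integrin ligands typical of fibroblasts and tumour stroma.

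The start-site windows of 5 genes, the trio that differed together by batch and a pair that set PT apart from astrocytes, are shown first, so that any shared sequence letters can be seen beside the values. The windows are RefSeq sequences on GRCm38.p6, from 250 bases before to 50 after the annotated start, 5′ to 3′ on the gene's strand; capitals mark matches to the motifs searched.

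*Postn*, chr3:54360857-54361156, plus strand: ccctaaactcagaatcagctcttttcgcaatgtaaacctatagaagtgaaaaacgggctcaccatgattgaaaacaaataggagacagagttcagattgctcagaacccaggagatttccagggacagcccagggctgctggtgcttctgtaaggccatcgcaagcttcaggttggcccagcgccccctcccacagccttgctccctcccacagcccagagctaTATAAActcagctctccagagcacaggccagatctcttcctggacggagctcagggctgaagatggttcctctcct
*Thbs2*, chr17:14694213-14694512, minus strand: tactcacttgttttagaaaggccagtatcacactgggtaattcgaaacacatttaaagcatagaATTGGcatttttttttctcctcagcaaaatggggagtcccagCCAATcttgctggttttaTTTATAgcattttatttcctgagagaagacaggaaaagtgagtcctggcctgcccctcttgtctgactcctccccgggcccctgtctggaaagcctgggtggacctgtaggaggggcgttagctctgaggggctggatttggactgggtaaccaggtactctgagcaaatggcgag
*Tgfbi*, chr13:56609336-56609635, plus strand: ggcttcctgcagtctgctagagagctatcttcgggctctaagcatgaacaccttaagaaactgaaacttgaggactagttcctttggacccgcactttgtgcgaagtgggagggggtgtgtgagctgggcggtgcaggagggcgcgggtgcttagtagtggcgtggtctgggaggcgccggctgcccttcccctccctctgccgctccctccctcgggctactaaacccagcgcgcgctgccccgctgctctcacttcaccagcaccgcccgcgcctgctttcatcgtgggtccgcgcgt
*Thbs3*, chr3:89214930-89215229, plus strand: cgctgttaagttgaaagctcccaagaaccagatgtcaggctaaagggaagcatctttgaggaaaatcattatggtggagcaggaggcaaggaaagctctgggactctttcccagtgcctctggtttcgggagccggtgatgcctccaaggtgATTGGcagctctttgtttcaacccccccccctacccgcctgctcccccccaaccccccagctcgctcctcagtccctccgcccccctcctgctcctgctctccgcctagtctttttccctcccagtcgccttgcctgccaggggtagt
*Spp1*, chr5:104434861-104435160, plus strand: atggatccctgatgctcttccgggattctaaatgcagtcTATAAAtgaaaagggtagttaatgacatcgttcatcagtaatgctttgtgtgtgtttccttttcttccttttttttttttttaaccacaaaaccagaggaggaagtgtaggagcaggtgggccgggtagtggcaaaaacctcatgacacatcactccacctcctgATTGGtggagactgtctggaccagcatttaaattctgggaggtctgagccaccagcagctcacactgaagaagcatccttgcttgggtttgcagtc

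Motifs were searched on both strands: the TATA box TATAAA, found in 13.6% of 32851 promoters, the AP-1 site TGANTCA in 7.81%, the TEAD site GGAATG in 14.7%, the CArG box of serum response factor in 1.63% and the CCAAT box in 37.4%. A CArG box can hold the letters of TATAAA or of CCAAT. The *Postn* window held TATAAA at position -26, counting back from the start, and no other match. The *Thbs2* window held 2 CCAAT matches, at -186 and -144, and TATAAA on the opposite strand at -126. The *Spp1* window held TATAAA at -211 and CCAAT at -46, that of *Thbs3* CCAAT at -98, and that of *Tgfbi* none. Other windows of members were those of *Sparc* and the second *Spp1* start, with no match, *Thbs4*, with 2 overlapping TEAD matches from -197, and a second *Postn* start, with CCAAT at 24. No AP-1 or CArG match stood in any of the 9 windows, which says nothing about the factors that act on these genes. *Thbs1* (chr2:118111876-118127133, plus strand, GRCm38), *Comp* (chr8:70373558-70382066, plus strand) and *Sparcl1* (chr5:104079111-104113733, minus strand) had no window.

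The depth of the libraries in fragments is unknown, since only FPKM were used. Taken from the most common ratio of low FPKM to those of PT1, the relative depth of 8 libraries was 0.507 to 1, while AstroEGFR*3 and PT3 shared only 43 and 38 such features with PT1 and gave no reliable mode. These 2 libraries also listed the fewest features above 0, 14813 and 14075, against 15794 to 17030 in the others. Small non-coding RNA and histone features took 0.844% to 29.7% of the summed FPKM in AstroEGFR* and 0.801% to 34.4% in PT. They took 35.8% to 54.8% in AstroEGFR* Zfp423, so each library of that group lay above all others. *Gapdh* was listed at 0.0106 to 50.1 FPKM, so that a value near 0 is not read as absence. *Cdkn2a*, the locus of p16/p19, was listed at 3.96 to 129.7 FPKM in all 10 libraries, and a value per symbol does not show whether the reads lay in the deleted part, so it checks nothing. *Zfp423* was listed at 3.25 to 4.30 FPKM in AstroEGFR* and at 0.641 to 2.78 in PT. In AstroEGFR* Zfp423 it was 15.7, 9.73 and 105 FPKM in batches 1, 2 and 3. The study too describes a much stronger overexpression in batch 3 and comparable levels in batches 1 and 2. All 10 astrocyte markers, among them *Gfap* and *Aqp4*, reached 1 FPKM in each AstroEGFR* library, and 6 of 10 did in AstroEGFR*2 Zfp423. *Xist* was 20.4 to 34.9 FPKM in the 3 batch 2 libraries and at most 0.0403 in the others, so the batch 2 labels held and batches 1 and 3 could not be checked this way. The tumour hosts were female, and *Xist* was 0.0057 to 0.0088 FPKM in PT1, PT3 and PT4. The share of host cells in PT was not tested. The AstroEGFR* Zfp423 libraries did not follow their batches closely. In log2(FPKM + 1) across features, which are not replicates, AstroEGFR*1 Zfp423 correlated with AstroEGFR*2 at r = 0.839 and with its parent AstroEGFR*1 at 0.770, which came to 0.849 and 0.842 after rescaling without small non-coding RNA and histones, beside 0.850 with AstroEGFR*3. AstroEGFR*2 Zfp423 correlated with its parent AstroEGFR*2 at 0.783 and with AstroEGFR*3 at 0.748, an order that turned after the rescaling (0.786 and 0.823). AstroEGFR*3 Zfp423 correlated with AstroEGFR*2 at 0.884 and with its parent AstroEGFR*3 at 0.721 (0.907 and 0.805 rescaled). Within the group, the libraries of batches 1 and 2 correlated with each other at 0.874 and with that of batch 3 at 0.785 and 0.749. Results on *Zfp423* are therefore also given without batch 3, and every difference from a parent culture rests on the batch in the labels. Values without batch 3 are not a cleaner estimate. The doubt about the parent covers all 3 libraries, and batches 1 and 2 held the high macrophage marker sums given below. Of the members, 8 passed the filter of a mean of at least 1 FPKM, and *Thbs4* and *Comp* did not.

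**Figure D1:**
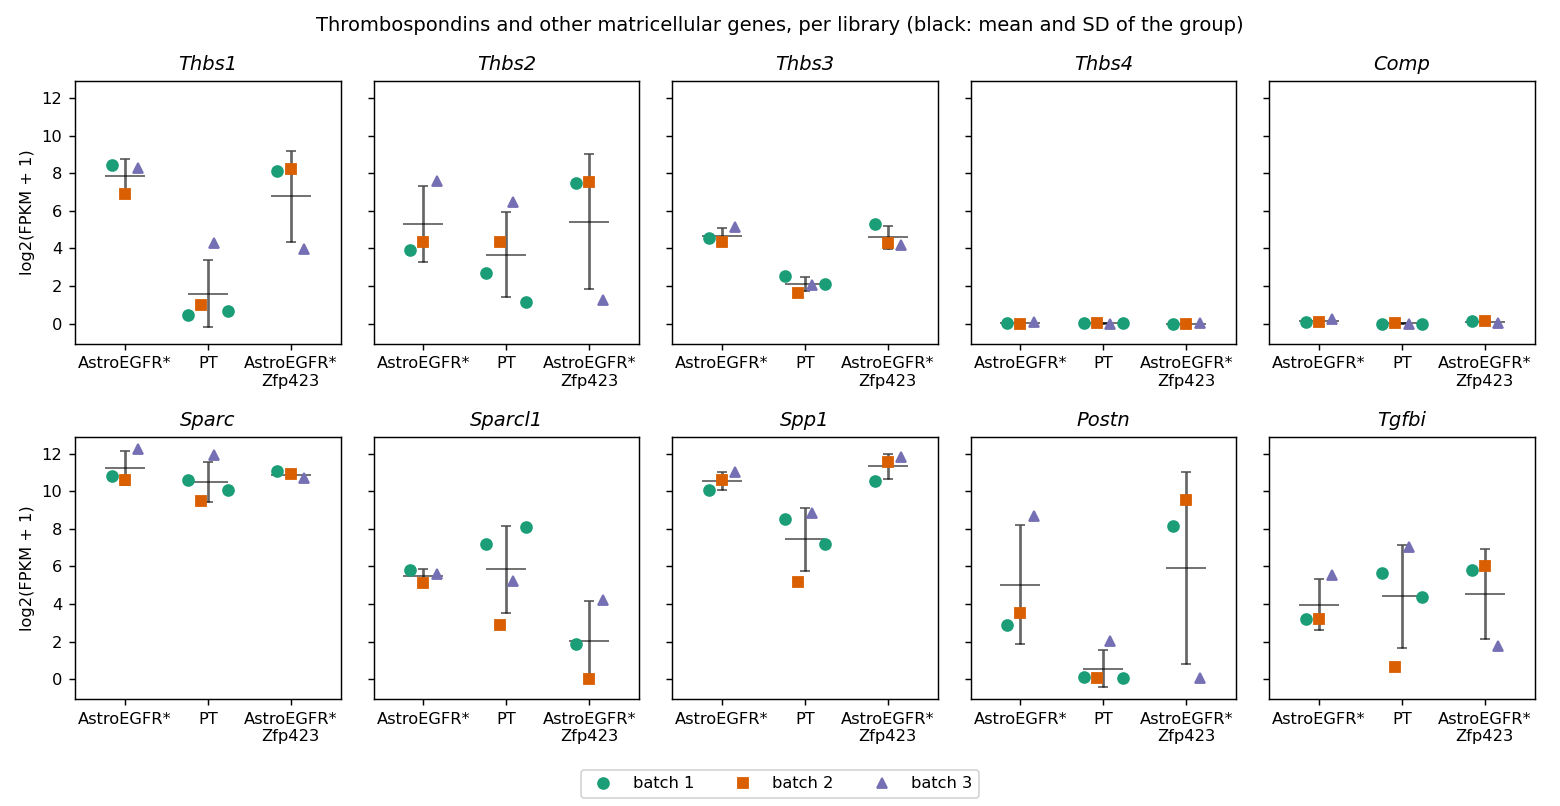
Level of each of the 10 genes as log2(FPKM + 1) (y axis) in AstroEGFR*, PT and AstroEGFR* Zfp423 (x axis); each point is 1 library, its colour and shape give the astrocyte batch, and black lines give the mean and SD of the group. *Thbs1*, *Thbs3*, *Spp1* and *Postn* lie lower in every PT library than in any AstroEGFR* library, and *Thbs2*, *Postn* and *Tgfbi* lie high in batches 1 and 2 and low in batch 3 with *Zfp423*.

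The expressed thrombospondins, *Thbs1*, *Thbs2* and *Thbs3*, differed in how far PT lay from AstroEGFR*. *Thbs1* was listed at 352, 116 and 314 FPKM in AstroEGFR* and at 0.382 (PT1), 0.986 (PT2), 18.5 (PT3) and 0.581 (PT4). Every PT library lay below each AstroEGFR* library, PT3 lay nearest to them, and the mean was 260.7 FPKM against 5.10, a 51.1-fold ratio that PT3 set, since without it the PT mean was 0.650 FPKM and the ratio 401-fold. Without any other of the 7 libraries the ratio was 39.1- to 65.2-fold. The difference in mean log2(FPKM + 1) was -6.28 (7.88 ± 0.87, SD, n = 3, against 1.60 ± 1.80, n = 4) and -7.17 without PT3, and within batches it was -8.00 and -7.80 in batch 1, -5.89 in batch 2 and -4.02 in batch 3. *Thbs3* was listed at 22.5, 19.0 and 34.0 FPKM in AstroEGFR* and at 4.88, 2.15, 3.11 and 3.27 FPKM in PT. It varied least between PT libraries of the 8 members (SD 0.37 on the log2 scale) and was 4.60-, 8.87-, 10.9- and 6.86-fold lower in PT1, PT2, PT3 and PT4 than in AstroEGFR* of the same batch, with a mean difference of -2.58 on the log2(FPKM + 1) scale. PT also lay below all 3 AstroEGFR* Zfp423 libraries for *Thbs3*. The *Thbs3* gene spans chr3:89215180-89226837 (GRCm38), and all 11658 bases of it lie within the span of *Mtx1*, a mitochondrial import gene on the opposite strand. Reads of any exon stretch the pair shares could not be told apart if the counting ignored strand. Whether their exons overlap was not examined. *Mtx1* itself differed by 0.04 log2 units between PT and AstroEGFR*. *Thbs2* was listed at 14.0, 19.7 and 195 FPKM in AstroEGFR* and at 5.56, 19.3, 87.8 and 1.24 FPKM in PT. The groups overlapped widely, the mean difference was -1.62 log2 units and the SDs were 2.02 and 2.27, and without AstroEGFR*3 the difference was -0.47. Within batches *Thbs2* was at the level of its astrocytes in PT2 (-0.03) and lower in PT1, PT3 and PT4 (-1.20, -1.14 and -2.74). *Thbs4* was at most 0.0506 FPKM in any library. *Comp* was 0.0711 to 0.205 FPKM in AstroEGFR* and above 0 in PT2 alone among PT, at 0.0311 FPKM.

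**Figure D2:**
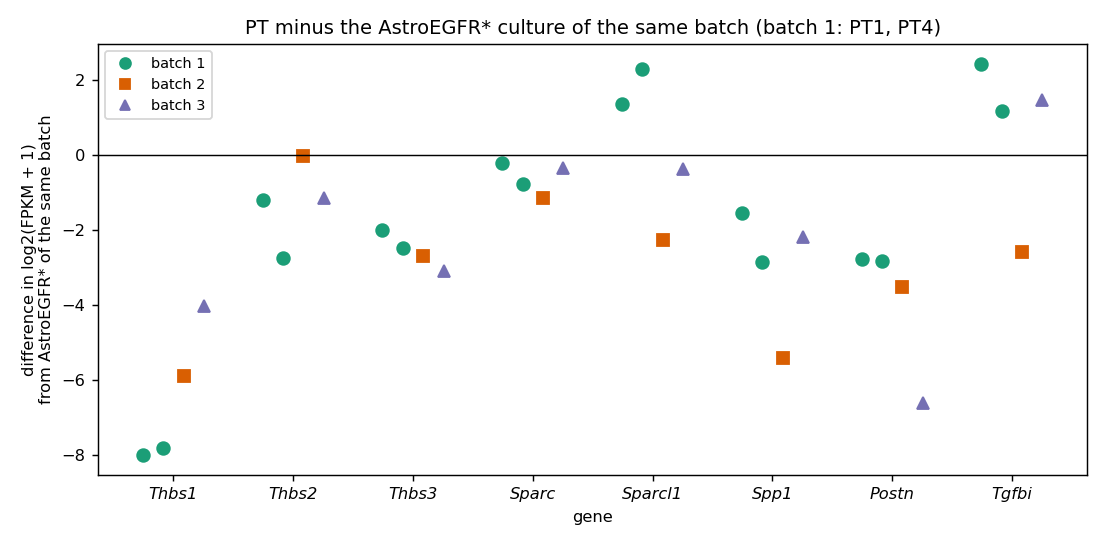
Difference in log2(FPKM + 1) between each PT library and the AstroEGFR* library of its own batch (y axis) for the 8 genes over the filter (x axis), 1 point per PT library with PT1 and PT4 both in batch 1. *Thbs1*, *Thbs2*, *Thbs3*, *Sparc*, *Spp1* and *Postn* lie below 0 in all 4, with *Thbs2* close to 0 in PT2 (-0.03), and *Tgfbi* lies above 0 in 3 of 4.

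*Sparc* was abundant in all 10 libraries, ranking between 2 and 73 of 23230 features. It was listed at 1794, 1548 and 4971 FPKM in AstroEGFR*, at 1557, 705, 3969 and 1067 FPKM in PT and at 2139, 1926 and 1662 FPKM with *Zfp423*. The groups overlapped, with a mean difference of -0.71 log2 units in PT (SDs 0.92 and 1.06). *Sparcl1* varied more in PT, at 145, 6.26, 36.3 and 275 FPKM in PT1 to PT4 against 54.9, 33.7 and 46.6 FPKM in AstroEGFR*. Both batch 1 PT libraries lay above AstroEGFR* by 1.38 and 2.30 log2 units and PT2 and PT3 lay below their own parents, at -2.26 and -0.35. The summed FPKM of 8 oligodendrocyte lineage markers was 1412 and 1690 in PT1 and PT4, 159 and 155 in PT2 and PT3 and 96.4 to 306 in AstroEGFR*, and its part in the *Sparcl1* values was not tested. *Spp1* was listed at 1066, 1552 and 2088 FPKM in AstroEGFR* and at 370, 35.5, 465 and 147 FPKM in PT. All PT libraries lay below all 6 astrocyte libraries, with a mean difference of -3.11 log2 units, -2.36 without PT2, and a range within batches of -1.52 to -5.41.

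*Postn* and *Tgfbi*, the fasciclin genes, varied widely between libraries. *Postn* was listed at 6.39, 10.7 and 406 FPKM in AstroEGFR* and at 0.0788, 0.0289, 3.16 and 0.0408 FPKM in PT. All PT libraries lay below all AstroEGFR* libraries, the difference was -4.47 log2 units (SDs 3.17 and 0.99), and without AstroEGFR*3 it was -2.65, since that library alone among them lay above 10.7 FPKM. The ratio of the mean FPKM was 170-fold, but 10.3-fold without AstroEGFR*3 and 2848-fold without PT3, and with a pseudocount of 0.1 the difference was -6.57. *Tgfbi* was listed at 8.10, 8.18 and 45.5 FPKM in AstroEGFR* and at 48.7, 0.553, 129 and 19.6 FPKM in PT. It was higher than its own batch by 2.45, 1.18 and 1.48 log2 units in PT1, PT4 and PT3 and lower in PT2, at -2.56, so that the groups overlapped.

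As a description only, the limma fit over all features called 2 of the 8 members lower in PT, *Thbs1* and *Thbs3*, where 0.922% of 12261 features were called lower, and 0 were called higher, where 0.318% of features were. Every PT library lay below every AstroEGFR* library for 4 members, *Thbs1*, *Thbs3*, *Spp1* and *Postn*, where 7.81% of features did so, and above for 0, where 6.95% did. The count of called members was 0 without AstroEGFR*1 or AstroEGFR*3, 1 (*Thbs3*) without PT1, PT2 or PT4, and 3 with the batch as a replicate block, which added *Postn*. Since the list was chosen with this comparison known, nothing is read from these counts or shares. *Postn* moreover passed the filter through AstroEGFR* alone, with a mean of 140.9 FPKM there and 0.827 in PT.

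Partners of these proteins were followed with lists of genes grouped by role. The lists, like the members, were drawn up with earlier results of this comparison known, so their counts are a description, set beside 0.922% of all features called lower, 0.318% called higher and a median of 0.03 over all features. Of 24 receptors and partners, 21 were tested, 0 were higher and 2 were lower in PT, the integrin subunits *Itgb5* (log2 fold change -3.11) and *Itga3* (-3.23), and the median was 0.15. *Itga3* was listed at 47.3 to 58.8 FPKM in AstroEGFR* and 1.62 to 9.59 in PT. Of 32 other matricellular genes, 23 were tested and 4 fell, with a median of -1.09: the CCN family members *Cyr61* (-4.83) and *Ctgf* (-4.93), the elastic fibre gene *Fbln5* (-3.27) and *Ecm1* (-2.97). *Cyr61* was at 301 to 416 FPKM in AstroEGFR* and at 6.75 to 22.6 in PT, and the other 19 tested did not pass. Of 20 genes of TGF-beta activation and response, 4 fell, with a median of -0.70, among them *Ltbp1*, which holds latent TGF-beta in the matrix (-2.54), *Smad7*, an inhibitor of the pathway (-2.21), and the smooth muscle gene *Tagln* (-7.79). Of 12 astrocyte synapse factors and their partners, 11 were tested and 0 were called, with a median of 0.59. With the batch as a replicate block 2 of these were called, both higher. Of the 10 list genes called in all, 10 were also called with the batch as a replicate block, among 19 of which 4 were higher. With PT1 and PT4 averaged, 4 of the 10 were called, without AstroEGFR*3 3, and without AstroEGFR*1 or without batch 3 only 2, *Cyr61* and *Tagln*. Without the filter the same 2 were called, and with all 10 libraries in 1 fit 3 of the 10, *Cyr61*, *Smad7* and *Tagln*, beside *Lrp1*, which was higher. In PT the summed FPKM of 10 fibroblast and meninges markers was 22.2 to 425, against 1103 to 5620 in AstroEGFR*, and that of 8 pericyte and smooth muscle markers was 4.86 to 77.3 against 756 to 1819. *Col1a1* stands in the fibroblast list and in the TGF-beta list. Whether other cell types account for these differences was not tested, and in bulk RNA fewer cells of a type and less RNA per cell cannot be told apart.

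With *Zfp423*, 0 of 12366 features were called in either direction by limma with the batch as a block (0%), though 913 were at an unadjusted p under 0.05, and 0 of 8 members were called. Without the block 2 features were called and 0 members. The exact permutation test on 3 against 3 libraries can give no p below 0.1. This comparison shares the AstroEGFR* libraries with that of PT, so the values of both are set side by side only. *Sparcl1* was the only member with all *Zfp423* libraries below all AstroEGFR* libraries, where 5.87% of features were so ordered. It was listed at 2.67, 0 and 17.8 FPKM with *Zfp423* against 54.9, 33.7 and 46.6 without, differing by -3.93, -5.12 and -1.34 log2 units in batches 1, 2 and 3. The mean difference was -3.46 ± 0.80 (SE, limma adjusted p = 0.628) and the exact permutation p was 0.1, the smallest possible. Without batch 3 it was -4.52. *Spp1* was the only member higher in all 3 batches, where 16.3% of features were. It was listed at 1526, 2988 and 3696 FPKM with *Zfp423*, differing by 0.52, 0.94 and 0.82 log2 units. The mean was 0.76 ± 0.62 (SE, limma adjusted p = 0.741, or 0.631 without the trend), and 0.73 without batch 3. The SEs of limma are drawn toward the spread of other features, so that of *Spp1* is not the spread of its 3 differences. *Spp1* thus lay above its parent in AstroEGFR* Zfp423 and below it in PT, while *Sparcl1* lay below its parent with *Zfp423* and on either side of it in PT.

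*Postn*, *Thbs2* and *Tgfbi* differed in opposite directions by batch. *Postn* was listed at 289, 741 and 0.0396 FPKM with *Zfp423*, against 6.39, 10.7 and 406 in the parent cultures. The differences were 5.29, 5.99 and -8.61 log2 units. *Thbs2* was listed at 179, 183 and 1.41 FPKM, differing by 3.58, 3.15 and -6.34, and *Tgfbi* at 55.6, 63.7 and 2.39 FPKM, differing by 2.64, 2.82 and -3.78. In each gene the AstroEGFR*3 parent was the highest of the 3 AstroEGFR* libraries and AstroEGFR*3 Zfp423 the lowest of its group. A value at least 1 log2 unit higher in batches 1 and 2 and at least 1 lower in batch 3 was seen in 3 of 8 members and in 2.54% of features, and the opposite in 0 members and 0.582% of features. The means over batches, 0.89 for *Postn*, 0.13 for *Thbs2* and 0.56 for *Tgfbi*, have limma adjusted p = 0.949, 0.991 and 0.928. Without batch 3 they were 5.64, 3.37 and 2.73. *Thbs1* was listed at 277, 303 and 14.5 FPKM (-0.34, 1.37 and -4.34, mean -1.10, limma adjusted p = 0.805), and 0.51 without batch 3. *Thbs3* (mean -0.08, limma adjusted p = 0.965) and *Sparc* (mean -0.34, limma adjusted p = 0.912) differed by less than the spread between batches, with 0.36 and 0.28 without batch 3. In batches 1 and 2 with *Zfp423*, 10 of 10 microglia and macrophage markers reached 1 FPKM and their sum was 1627 and 932 FPKM, against 1.20 in AstroEGFR*3 Zfp423, where 6 of 10 were at 0, and 3.56 to 13.8 in AstroEGFR*. The fibroblast sum was 5059 and 8114 FPKM in batches 1 and 2 and 363 in batch 3. The astrocyte sum was 220, 65.1 and 934, against 626, 532 and 1093 in the parents of batches 1, 2 and 3. The oligodendrocyte lineage sum was 56.6, 14.4 and 247, against 306, 163 and 96.4 in the parents. The part of these markers in the differences was not tested. Over all 10 libraries the sums were 14.4 to 1690 FPKM for 8 oligodendrocyte lineage markers, 0.426 to 14.9 for 8 endothelial markers and 21.2 to 116 for 7 neuronal markers. Of the 4 gene lists, 0 genes were called with *Zfp423* by limma, and the medians were -0.10 for receptors and partners, -0.56 for other matricellular genes, -0.01 for TGF-beta and -1.47 for synapse factors, against 0.02 for the members and 0.02 for all features.

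**Figure D3:**
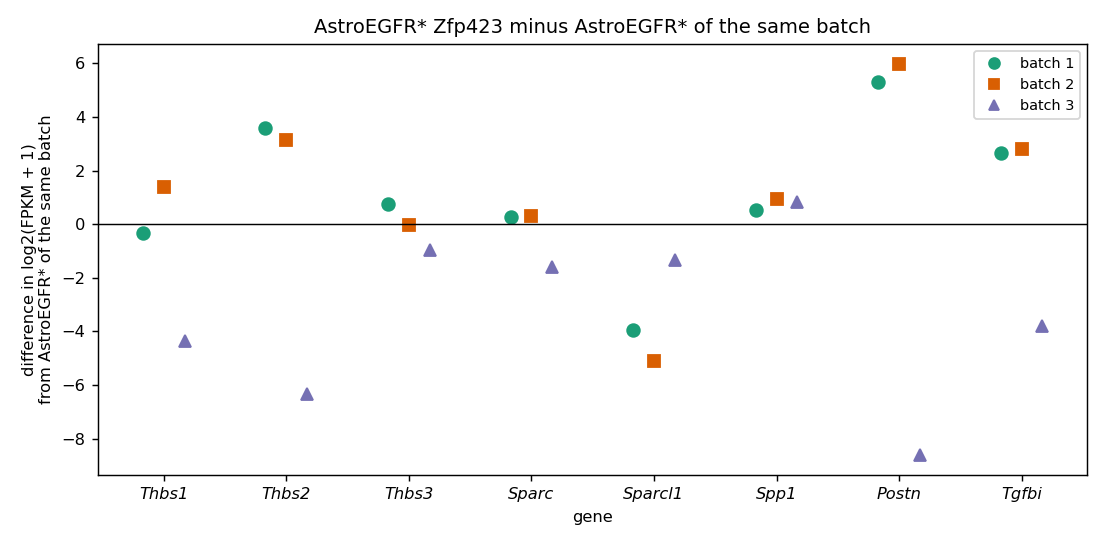
Difference in log2(FPKM + 1) between each AstroEGFR* Zfp423 library and the AstroEGFR* library of its batch (y axis) for the 8 genes (x axis), 1 point per batch. *Postn*, *Thbs2* and *Tgfbi* lie above 0 in batches 1 and 2 and below 0 in batch 3, *Sparcl1* lies below 0 in all 3 and *Spp1* above 0 in all 3.

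Across the 10 libraries the levels on the log2(FPKM + 1) scale are compared here as a description. Libraries of 1 batch share their source, and the correlations span the gap between PT and AstroEGFR* on which the list was selected. *Thbs1* went with *Thbs3* (Pearson r = 0.876), *Thbs2* with *Postn* (0.860) and *Thbs3* with *Spp1* (0.847), while *Sparcl1* ran against *Thbs2* (-0.606) and *Postn* (-0.595). The values nearest 0 were those of *Sparc* with *Sparcl1* (0.00521) and of *Tgfbi* with *Sparcl1* (-0.00150) and *Thbs3* (0.147). *Postn* followed the summed fibroblast markers (0.914) as did *Thbs1* (0.904), *Thbs3* followed the pericyte and smooth muscle markers (0.913), and *Sparcl1* followed the oligodendrocyte lineage markers (0.903) and the astrocyte markers (0.802) and ran against the microglia and macrophage markers (-0.862). For *Spp1*, r was 0.832 with the fibroblast markers, 0.773 with the pericyte and smooth muscle markers and 0.188 with the microglia markers. The features most like each member by r over 12468 features were *Ctgf* (0.987), *Pdgfrb* (0.972) and *Trim12a* (0.970) for *Thbs1*, and 2010111I01Rik (0.992), *Ifi30* (0.956) and *Ptgr1* (0.950) for *Thbs2*. For *Thbs3* they were *Ptplad2* (0.984), *Wdsub1* (0.959) and *Adamtsl4* (0.957). For *Sparc* they were 9030625A04Rik (0.954), *Nptn* (0.946) and *Raly* (0.942), and for *Sparcl1* *Snx27* (0.966), *Anp32e* (0.952) and *Grik5* (0.950). For *Spp1* they were *Steap2* (0.969), *Trip6* (0.964) and *Slc4a2* (0.964). For *Postn* they were *Fxyd5* (0.983), the smooth muscle actin *Actg2* (0.983) and *Bnc2* (0.982), and for *Tgfbi* *Arpc4* (0.931), *Cnot4* (0.919) and *Ly6e* (0.904). Rescaling each library without small non-coding RNA and histones left the first of each in place 1 or 2 and moved *Cnot4* to place 330, at r = 0.547, *Wdsub1* to 26, *Trip6* to 17, *Raly* to 8, *Trim12a* to 7 and *Ptgr1*, *Grik5* and *Slc4a2* to 4.

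**Figure D4:**
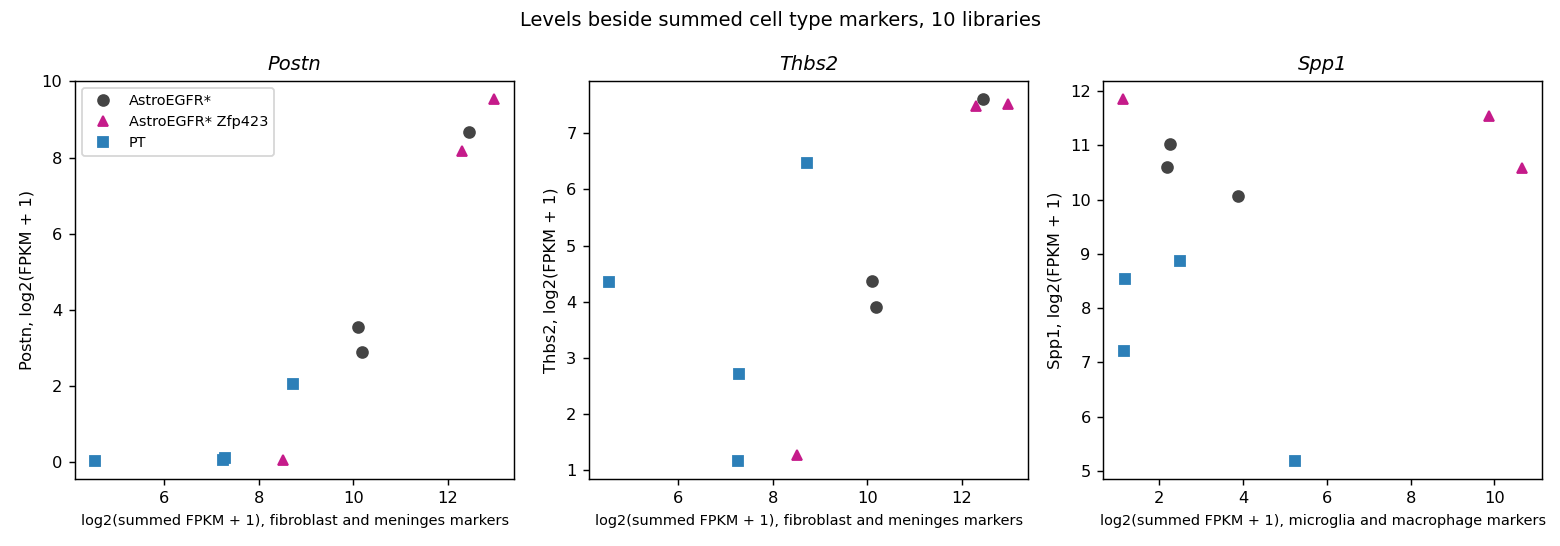
Levels of *Postn*, *Thbs2* and *Spp1* as log2(FPKM + 1) (y axes) beside the log2 of summed marker FPKM plus 1 (x axes, fibroblast and meninges markers for the first pair, microglia and macrophage markers for *Spp1*), 1 point per library, with shape and colour by group. *Postn* and *Thbs2* lie highest in the 3 libraries with fibroblast sums of 5059, 5620 and 8114 FPKM, and *Spp1* lies lower in the 4 PT libraries than in the 6 astrocyte libraries.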

How the data were processed

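RNAseq libraries of 3 AstroEGFR*, 4 PT and 3 AstroEGFR* Zfp423 cultures were used. The authors deposited 1 matrix of FPKM values of 23230 features named by symbol. The submitters' processing notes name TopHat 1.3, Cuffnorm and mm9. Per the labels the kit was TruSeq RNA and the vector a lentiviral *Zfp423* construct, where the study's methods describe ribosomal RNA removal with stranded libraries and a retroviral vector. Of the columns, 0 were left unused. No count model was run on FPKM.

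Only features averaging 1 FPKM or more were compared, on log2(FPKM + 1) with limma 3.58.1 in R 4.3.3 (linear model, empirical Bayes with trend, Benjamini-Hochberg, threshold 0.05). A fold change on this scale understates changes of low genes. The code was run on simulated data with independent noise, no batches and large planted changes only. That run does not show how the fit handles libraries of a shared source or smaller changes. PT was fitted without a block, since the methods text read here names none (the Supplementary Methods were not used here), and AstroEGFR* Zfp423 with the astrocyte batch as a block. The main PT fit thus leaves out the pairing of PT with its parent batch. It also counts PT1 and PT4, both of batch 1 (r = 0.956), as separate libraries. Deviations from group means of PT and its own batch correlated at 0.346 to 0.499, so batches pair these libraries by source, while those of AstroEGFR* Zfp423, paired by cell line, gave 0.241, -0.111 and -0.262. Single members were also compared by the exact permutation test, two-sided. Other steps ran in Python 3.11.15 (scipy 1.17.1, pandas 2.3.3, numpy 2.4.6, matplotlib 3.10.9).

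The members, the gene lists, the marker lists and the tests were chosen with earlier results of these data known. Named were all 10 members, the 3 features most correlated with each and list genes that passed a threshold, at most 4 per list. The result of 1 list gene is not reported here. Promoters are RefSeq sequences on GRCm38.p6 and gene spans GENCODE on GRCm38, neither the build of the files. Alternatives were a pseudocount of 0.1, no filter, 2 rescalings, no trend, all 10 libraries in 1 fit, the block added or removed, PT1 and PT4 averaged, and each library or batch 3 left out. These were applied to the list genes after seeing the data.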

Additional observations from a re-analysis of the deposited data

Results flagged for a closer look

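Within the 4 PT libraries, 3 members had a library whose gap to its nearest neighbour, divided by the range of the group, exceeded the limit for 4 values, a limit that chance passes in about 1 in 20 groups. That rate holds for independent values, whereas PT1 and PT4 share batch 1. For *Thbs1* the ratio was 0.863, with PT3 at 18.5 FPKM above the other 3. For *Postn* it was 0.966, with PT3 at 3.16 FPKM above the other 3. Those lay near the floor, at 0.0289 to 0.0788 FPKM, which brings the ratio close to 1, so little is read from it. For *Comp* it was 1, with PT2 at 0.0311 FPKM and the others listed at 0, which fixes the ratio at 1, so that nothing is read from it.

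With *Zfp423*, 3 members differed from the AstroEGFR* library of their own batch in opposite directions between batches, and the difference between batches was not tested because each batch holds 1 library per arm. On the log2(FPKM + 1) scale, *Thbs2* differed by 3.58 and 3.15 in batches 1 and 2 and by -6.34 in batch 3. *Postn* differed by 5.29, 5.99 and -8.61, and *Tgfbi* by 2.64, 2.82 and -3.78.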

How the results depend on the processing

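For PT against AstroEGFR*, 152 features and, as a description, 2 members were called. Without the filter the counts were 45 and 0, with all 10 libraries in 1 fit 62 and 1, without batch 3 8 and 1, and with PT1 and PT4 averaged 61 and 1. With the batch as a replicate block, which pairs each PT library with its own batch, 475 features were called and *Postn* (-4.16) joined *Thbs1* and *Thbs3*. Leaving out each library gave 7 to 123 features and 0 to 2 members, with 0 members without AstroEGFR*1 or AstroEGFR*3. *Sparcl1* changed sign with the block (-0.047) and with PT1 and PT4 averaged (-0.26), and with single libraries left out it ranged from -0.41 to 1.34, with -0.10 without PT1, and *Tgfbi* from -0.43 to 1.70. For *Zfp423*, 0 features were called, 2 with no replicate block, and 0 to 60 with a library left out, 60 of them without AstroEGFR*2 Zfp423 and 47 without AstroEGFR*2, while 0 members were called in each. With the pseudocount of 0.1, *Thbs2* was -0.047, *Postn* 0.02 and *Sparcl1* -4.70, and in PT *Postn* was -6.57. Without batch 3, *Thbs1* was 0.51, *Thbs3* 0.36 and *Sparc* 0.28. With single libraries left out, *Postn* ranged from -1.66 to 5.64 (-1.31 without batch 1 libraries), *Thbs2* from -1.60 to 3.37 (-1.38 without batch 2 libraries), *Tgfbi* from -0.57 to 2.73 (-0.48 without batch 1 libraries), *Thbs1* from -2.34 to 0.51, *Thbs3* from -0.50 to 0.36 and *Sparc* from -0.66 to 0.28. The cause of these changes was not tested. In the blocked fit, leaving out 1 library also takes its partner out of the estimate. Depth in fragments is unknown, which limits how far low values such as *Thbs4* and *Comp* can be read.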
